A study of Isodiametra pulchra with 2 samples.

Results

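The 100 features described here are the RNAs of *Isodiametra pulchra* hatchlings that took the largest share of the RNA in droplets without a cell relative to their share in cells. *Isodiametra pulchra* is a small marine acoel flatworm, and its 2 single-cell libraries form 1 group, so the study holds no contrast between conditions. Members were chosen from measured values. In each library the summed UMI counts (unique molecular identifiers, 1 for each captured RNA molecule) of the empty droplets and of the cells were scaled to CPM, the UMIs of a feature per 1000000 UMIs of the group. The ratio of empty droplets to cells was then taken per feature. Features were ranked by the lower of their 2 ratios, and the first 100 of 5102 eligible features were kept, out of 23786 in the list. An eligible feature had at least 50 UMIs in the cells of each library and was detected in 5 to 50% of the cells of library 2.

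Both libraries were labelled as all cells of wild-type hatchlings. The animals were cultured at 20 °C and fed diatoms of the species Nitzschia curvilineata. For both libraries their cells were freed with collagenase at 1 mg/ml for 1 h at 25 °C. The assay read the 3′ ends of polyadenylated RNA with kits from 10x Genomics, for which the labels name version 3 in one sentence and versions 2 and 3 in another. The labels do not tie a version to a library. The deposited barcode lists held 737280 entries for library 1 and 6794880 for library 2, which are the sizes known for the lists of versions 2 and 3. By those sizes each version belongs to 1 library, and kit and library cannot be told apart. They also do not say whether the libraries came from separate animals or dissociations, so the p-values measure the spread between these libraries, which may be technical.

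In droplet sequencing each droplet carries a barcoded bead, and most droplets hold no cell. RNA from broken cells stays in the suspension, enters droplets with and without cells, and is captured under the barcode of whichever droplet it reaches. The profile of empty droplets is therefore commonly used as a picture of that free RNA. The identifiers come from a Trinity transcriptome assembly and are not paired with gene names, so the functions of the members are not given. The prefix TRINITY_ is left out of each identifier.

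Library 1 held 6581711 UMIs and library 2 held 34060611. There were 4483 cells in library 1, with at least 166 UMIs each and a median of 288, and 3275 in library 2, with at least 1027 UMIs and a median of 1520. Empty droplets were the 44395 barcodes with 48 to 72 UMIs in library 1 and the 35272 with 268 to 402 in library 2. No barcode sequence was shared between the cells of the libraries (0 shared). The last 1149 features of the list had no UMI at all, against 97.5% of the earlier features with at least 1, so none of those 1149 could become a member.

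The ratio of empty droplets to cells had a median over the members of 1.69 in library 1 (lowest 1.49, highest 3.37) and of 1.67 in library 2 (lowest 1.49, highest 4.67). The medians over all eligible features were 0.981 and 0.987. These values chose the members and are given as a description without a test. The lower ratio ran from 2.31 for the first member to 1.49 for the last, and 8 members had a lower ratio of at least 2. The lower ratio was that of library 1 for 41 members and that of library 2 for 59. Over all 5102 eligible features, Spearman's coefficient of the ratio between the libraries was 0.625. Both values of a feature come from the same species and assembly, and they share the feature's length and sequence.

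**Figure D1:**
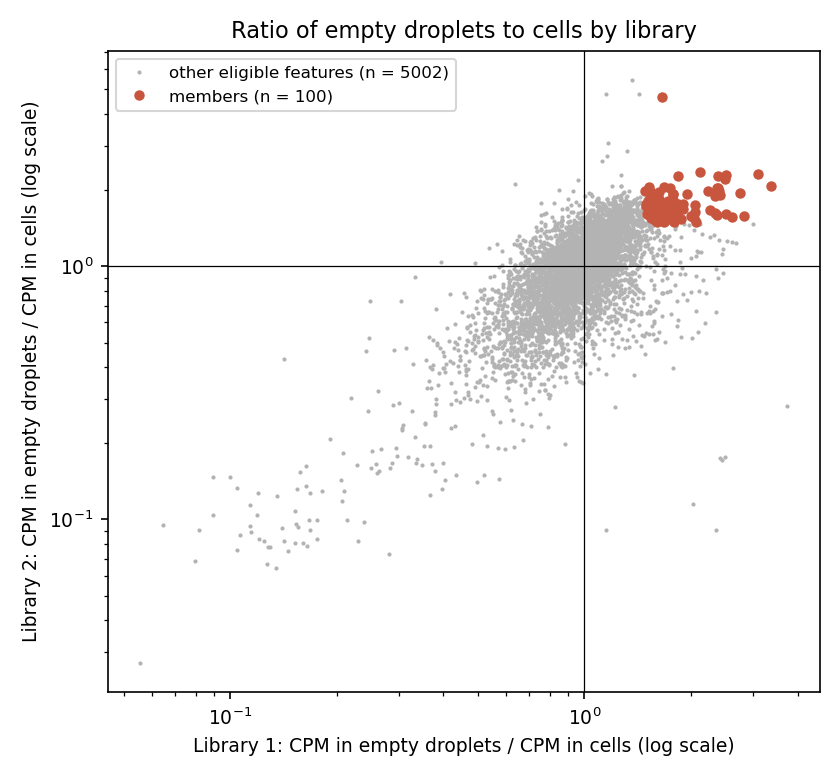
Ratio of CPM in empty droplets to CPM in cells, library 1 on the horizontal and library 2 on the vertical log axis, with one point per eligible feature and the members coloured. The members fill the corner where both ratios are 1.49 or more, while the eligible features centre on medians of 0.981 and 0.987.

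The place of the boundary was narrow. Just inside it stood DN24351_c1_g2 with a lower ratio of 1.49, DN31010_c0_g2 with 1.49 and DN18596_c0_g1 with 1.49. Just outside it stood DN27507_c1_g3, DN23936_c0_g6 and DN24932_c2_g2, also with lower ratios of 1.49. Membership depended on how the rule was set. With cells taken at 500 UMIs in both libraries 51 members stayed among the first 100, and without the limits on detection 54 did. Ranked in library 1 alone, 44 members were among the first 100, and in library 2 alone 31 were. Of the 67 features with enough UMIs that were detected in more than 50% of library 2 cells, 6 had a lower ratio at or above that of the last member. The same held for 58 of the 1857 features detected in fewer than 5%.

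DN21575_c0_g1 ranked first. It stood at 187 CPM in the cells and 578 CPM in the empty droplets of library 1, and at 101 and 233 CPM in library 2. Its ratios were 3.09 and 2.31, with 95% counting intervals from 2.74 to 3.49 and from 2.13 to 2.51. Those intervals cover counting error alone. In the cells of library 2 the variance of this member was 47.3 times the binomial variance, so its interval there is too narrow. Over the 100 members no interval included 1 in either library. The members were chosen by these ratios, so that count is a description and no support. DN20822_c0_g1 ranked second and was the most abundant member in the empty droplets of library 1, at 2464 CPM against 980 CPM in cells. In library 2 it stood at 358 CPM in empty droplets and 155 CPM in cells. Its level therefore differed far more between the libraries than its ratios did, which were 2.51 and 2.31.

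The next members had lower levels. DN30760_c2_g2 had ratios of 2.39 in library 1 and 2.27 in library 2, DN25043_c3_g3 of 2.50 and 2.22, and DN18899_c0_g2 of 2.12 and 2.36. DN18899_c0_g2 was the only one of the first 10 members with the higher ratio in library 2. DN21711_c0_g1 had the highest ratio of all members in library 1, 3.37, from 551 CPM in empty droplets and 164 CPM in cells. In library 2 its ratio was 2.07, from 300.4 CPM and 145 CPM. DN21135_c1_g2 had ratios of 2.37 and 2.05, DN25449_c0_g2 of 2.39 and 2.03, DN26169_c0_g2 of 2.23 and 1.99, and DN26730_c0_g4 of 2.41 and 1.98. In each of these 4 the ratio of library 1 was the higher one.

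The median level of the members lay above that of all eligible features. In cells the median of the members was 131 CPM in library 1 (29.1 to 1249) and 63.4 CPM in library 2 (27.8 to 631). In empty droplets it was 217 CPM (56.5 to 2464) and 111 CPM (43.4 to 1453). Eligible features had medians of 88.6 and 56.4 CPM in cells and of 85.4 and 53.3 CPM in empty droplets. Ranked by the lower of their CPM values in the empty droplets of the 2 libraries, the highest members were DN31317_c0_g4, DN27730_c0_g4, DN20224_c0_g2, DN20997_c0_g1 and DN23512_c0_g2. DN31317_c0_g4 stood at 1013 CPM in the empty droplets of library 1 and at 987 CPM in library 2, and DN27730_c0_g4 at 1315 and 894 CPM. DN20224_c0_g2 stood at 799 and 1077 CPM, DN20997_c0_g1 at 600.3 and 952 CPM, and DN23512_c0_g2 at 863 and 568 CPM. The order of these 5 was thus not the same in the libraries, and other members were higher in 1 library alone, such as DN20822_c0_g1 in library 1. DN32850_c1_g1, singled out after its values were seen, had the most unequal pair of ratios: 1.66 in library 1, from 170 CPM in empty droplets and 103 CPM in cells, and 4.67 in library 2, from 1453 and 311 CPM.

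Counted as molecules per barcode, the members were more abundant in cells. Each of the 100 members had more UMIs per cell than per empty droplet in both libraries. An empty droplet held on average 2.42 member UMIs in library 1 and 6.92 in library 2, and a cell held 8.57 and 24.8. The number per cell over the number per empty droplet had a median over the members of 3.79 in library 1 (1.90 to 4.30) and of 3.88 in library 2 (1.39 to 4.34). Over all features a cell held 6.40 times the UMIs of an empty droplet in library 1 and 6.47 times in library 2. The lowest value belonged to DN32850_c1_g1 in library 2, with 0.480 UMIs per empty droplet and 0.665 per cell. The name of the list thus holds for shares of RNA and not for counts of molecules per droplet.

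**Figure D2:**
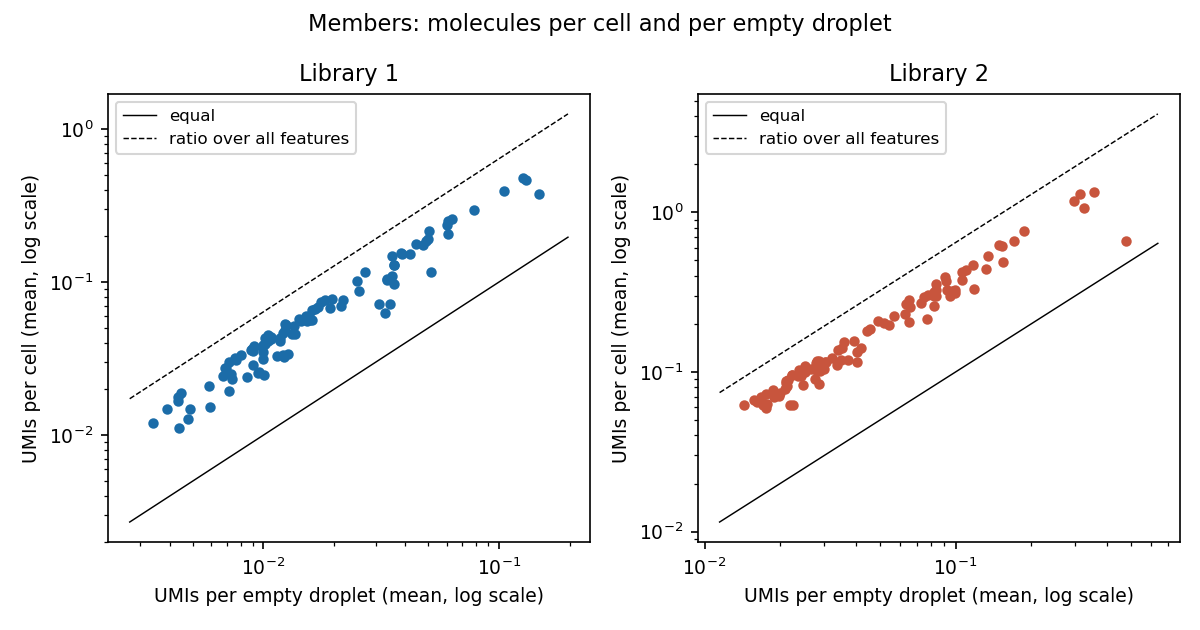
Mean UMIs of each member per empty droplet (horizontal log axis) and per cell (vertical log axis), one panel per library and one point per member, with lines for equal numbers and for the factor of all features. Every member lies above equality, with medians of 3.79 and 3.88, and below the factors of 6.40 and 6.47 of all features.

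The summed share of the members was lower in cells than in each group of barcodes with fewer UMIs. In library 1 they took 4.01% of the UMIs of barcodes with 20 to 47 UMIs (exact 95% interval 3.94 to 4.08%). They took 4.04% in the empty droplets (4.02 to 4.06%), 3.63% in barcodes between the empty range and the cell threshold (3.61 to 3.66%) and 2.24% in cells (2.22 to 2.26%). In library 2 the shares were 2.29% in barcodes with 112 to 267 UMIs (2.27 to 2.31%), 2.09% in empty droplets (2.09 to 2.10%), 1.65% between (1.65 to 1.66%) and 1.16% in cells (1.15 to 1.17%). The shares in empty droplets and cells follow from the rule, while the barcodes below and between were not used by it. The barcodes below had a higher share than those between in both libraries. These intervals, and those given next for groups of cells, cover counting error alone. In cells the summed member UMIs varied by more than that, so the intervals of cells are likely too narrow.

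The cells of each library were also split by UMI total into 4 groups of equal number. The group with the fewest UMIs had the highest member share, 2.66% in library 1 (2.59 to 2.73%) and 1.28% in library 2 (1.26 to 1.30%). The third group had the lowest, 2.13% and 1.06%, and the group with the most UMIs stood at 2.17% and 1.17%. Member by member, 69 had a higher CPM in the group with the fewest UMIs than in that with the most in library 1 and 60 in library 2. The shares over all eligible features were 53.8% and 65.1%, so in library 2 the members' share was below that of eligible features.

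**Figure D3:**
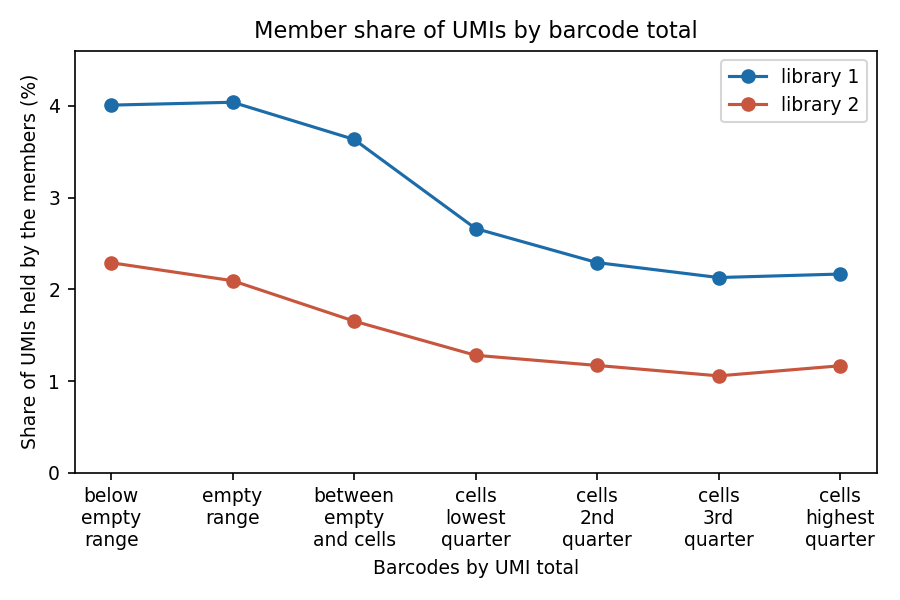
Share of UMIs taken by the 100 members (vertical axis, %) in groups of barcodes ordered by their UMI total, from below the empty range to the cells with the most UMIs, one line per library. In library 1 the share goes from 4.01% below the empty range to 2.17% in the fullest cells, and in library 2 from 2.29% to 1.17%.

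Barcodes that the rule did not use were tested in the same direction in the same libraries. Counts of the 6866 barcodes below the empty range in library 1 and the 10368 in library 2 were summed, as were those of the 17052 and 19676 barcodes between that range and the cell threshold. The pairs were compared with edgeR's quasi-likelihood test with the library as a block, which left 1 residual degree of freedom. Median totals were 44 UMIs in library 1 and 239 in library 2 below, and 85 and 492 between. These lie closer to the empty range than to the cell thresholds, so both bands may hold mostly empty droplets. Neither a lean of the members nor a lack of calls is therefore an independent check on the rule. Of 11954 features 3 were called higher below (0.0251%) at an adjusted p of 0.05, and 0 of the 100 members were among them. The number of members at an unadjusted p under 0.05 was 13, and DESeq2 also called 0, with 6 unadjusted. Of all features 3.33% were called lower below, and 0 of the members. With DESeq2's size factors in edgeR 4 members were called higher below, of 18 calls among 11954 features (0.151%). With the upper band limited to barcodes from 80% of the cell threshold 6 members were called, of 44 calls among 10005 features (0.440%).

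The values themselves leaned the same way in most members. In library 1, 73 members had a higher CPM below than between, in library 2, 99 did, and 72 did in both. Over the eligible features the shares were 56.0%, 65.8% and 38.9%. The median fold, below over between, was 1.12 over the members and 1.03 over eligible features in library 1, and 1.38 and 1.10 in library 2. The member with the smallest adjusted p was DN17087_c0_g1, at 86.7 CPM below and 58.8 CPM between in library 1 and at 62.2 and 37.0 CPM in library 2. Its TMM-scaled log2 difference was 0.62 (SE 0.20), with an adjusted p of 0.0703 in edgeR. For DN21711_c0_g1 the values were 610.3 and 449 CPM in library 1 and 347 and 204 CPM in library 2. Its log2 difference was 0.54 (SE 0.19), with an adjusted p of 0.121 in edgeR.

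The summed UMIs of the members were spread more evenly over empty droplets than over cells. Evenness was measured as the variance of the summed member UMIs of a barcode over the binomial variance at its total, which is 1 if only counting error acts. It was 1.06 in the empty droplets of library 1 and 1.25 in those of library 2, against 4.87 and 36.1 in cells. Since that value grows with the UMIs of a barcode, the SD of the member share beyond counting error was also taken as a percent of its mean. It was 15.8% and 18.6% in empty droplets and 50.3% and 90.8% in cells. For single members the median of the variance ratio was 1.07 and 1.12 in empty droplets and 1.18 and 1.78 in cells. For eligible features it was 1.03 and 1.08 in empty droplets and 1.06 and 1.23 in cells. These medians were not adjusted for the UMIs of a barcode. A cell held a median of 3.79 and 3.88 times the UMIs of a member per empty droplet. Whether the typical single member was more uneven in cells was therefore not tested.

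A few cells held much of some members. The most uneven member in library 1 was DN27484_c3_g2, with a variance 16.8 times the binomial one over cells, and in library 2 it was DN22340_c0_g3, with 199.64 times. In library 2, 1 cell held 414 UMIs of DN22340_c0_g3, and the 10 cells with the most held 67.6% of its cell UMIs, while no empty droplet held more than 11. In library 1 its highest cell held 41 UMIs and the 10 highest cells held 36.5%. Over all members, the 10 highest cells held a median of 12.7% of a member's cell UMIs in library 1 and 13.3% in library 2. The 10 highest empty droplets held 3.38% and 2.17% of its UMIs there. Cells are fewer than empty droplets, which raises the first share.

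Cells were grouped into clusters without the members, so that the members' levels among the clusters did not shape the clusters. After the highest doublet scores had been removed, 7511 cells gave 33 clusters, of which 24 held at least 20 cells of each library. Clusters are called by number, since no markers with known names were available. Counts summed per library and cluster were compared with edgeR's quasi-likelihood F-test over all 24 clusters, with the library as a block. Of 5581 features tested 3067 were called (55.0%), and of the 96 members tested 74 were called (77.1%). The features that had made the clusters were not tested, and 21 of the tested members would have been among them. Outside those, 53 of 75 members (70.7%) and 2993 of 5485 other features (54.6%) were called. Features with more UMIs are called more readily, and the part of the members' UMI counts in that difference was not tested. Counts were summed over cells, so a few cells can lead to a call. DN22340_c0_g3 was called (adjusted p = 1.00e-38, edgeR) with 419 UMIs in cluster 16 of library 2. There it was detected in 6.45% of cells, against 7.11% of other cells. The other 4 members, DN32485_c2_g3, DN24346_c0_g1, DN26436_c1_g1 and DN28157_c0_g1, did not pass the low-count filter of the test.

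The 5 members with the smallest p each stood high in 1 to 3 clusters. DN19349_c0_g1 had 6684 CPM in cluster 27 of library 1 and 4118 CPM in cluster 27 of library 2, with a median over clusters of 121 and 82.2 CPM (adjusted p = 1.06e-71, edgeR). It was also high in cluster 21, at 2608 and 4045 CPM. DN22738_c0_g4 had 3714 CPM in cluster 15 of library 1 and 3098 CPM in that of library 2, with medians of 85.4 and 44.0 CPM (adjusted p = 5.37e-69, edgeR). DN27484_c3_g2 had 15369 CPM in cluster 20 of library 1 and 4210 CPM in that of library 2, with medians of 659 and 111 CPM (adjusted p = 2.68e-67, edgeR). In these members the highest cluster was the same in both libraries. DN23512_c0_g2 had 5216 CPM in cluster 21 of library 1 and 10751 CPM in that of library 2, with medians of 289 and 129 CPM (adjusted p = 1.33e-64, edgeR). DN20265_c0_g1 was highest in cluster 20 of library 1, at 6859 CPM, and in cluster 15 of library 2, at 2298 CPM, with medians of 262 and 125 CPM (adjusted p = 1.22e-63, edgeR). It stood at 4756 and 1364 CPM in cluster 21, at 1588 CPM in cluster 15 of library 1 and at 1414 CPM in cluster 20 of library 2, so the same 3 clusters were high in both.

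**Figure D4:**
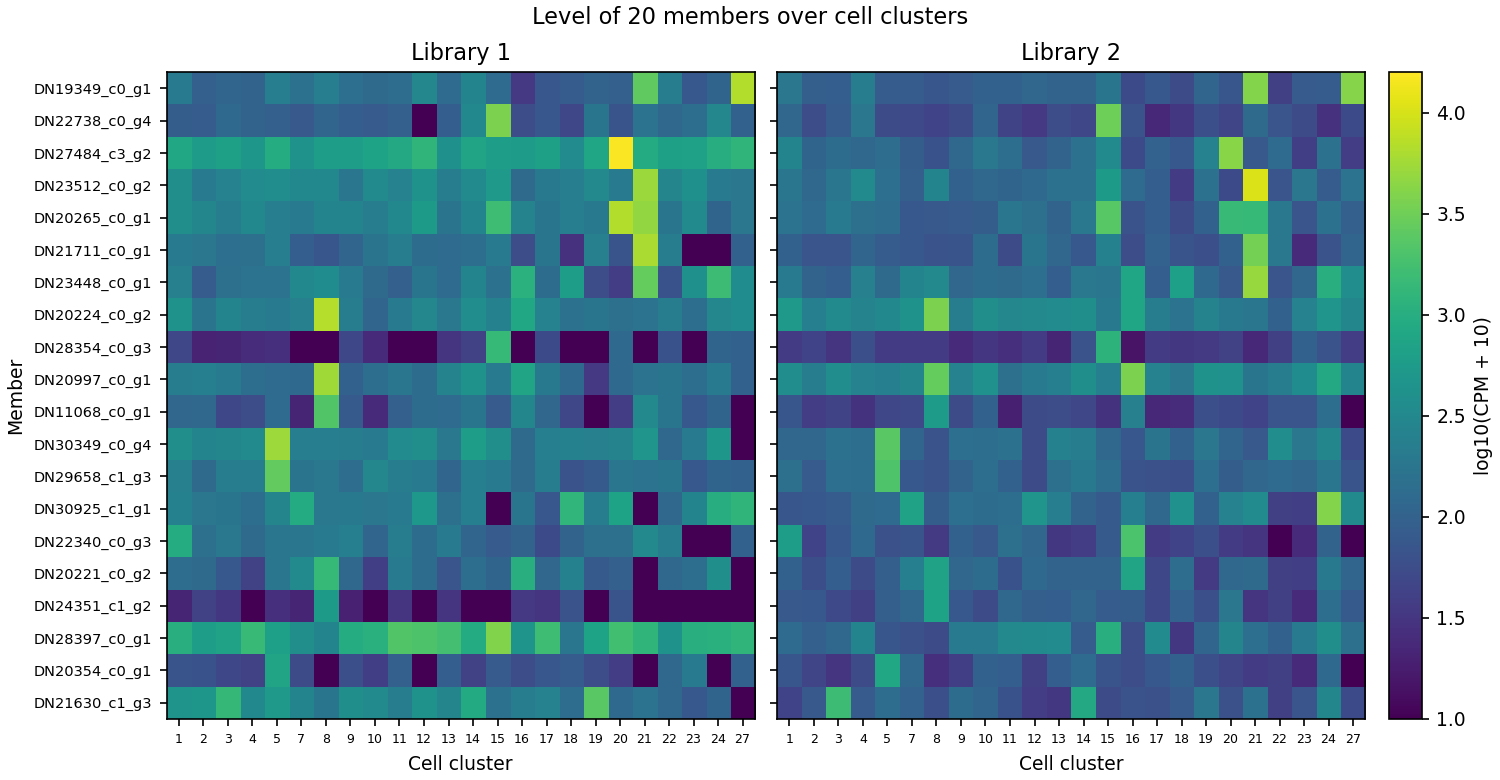
Level of the 20 members with the smallest p among clusters, as log10(CPM + 10) in colour, by cell cluster (horizontal axis) and library (panels). Several rows have a bright square in the same column of both panels, such as cluster 27 for DN19349_c0_g1, at 6684 and 4118 CPM.

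Among the 74 called members, 42 (56.8%) had their highest level in the same cluster in both libraries, against 1199 of the 2993 other called features (40.1%). The sets are unlike: 21 of the called members would have been among the features that made the clusters, and other features of that kind were not tested. This limits the comparison, and also that of the shares by cluster given below. For these 42 the level in the highest cluster over that in all other cells had a median of 6.48 in library 1 (2.27 to 53.8) and of 7.76 in library 2 (2.47 to 76.7), and 14 were above 10-fold in both. The cluster was chosen as the highest, so these folds are a description. In 41 of the 42, the level in empty droplets lay below that in the highest cluster in both libraries. That cluster was picked as the highest of 24, which favours this outcome, so the 41 are a description. In all 42 the level in empty droplets lay above that in the sum of all other cells in both libraries, which follows from the rule. Their highest clusters were spread over 16 of the 24 clusters: 8 members were highest in cluster 2, 7 in cluster 23, and 5 each in clusters 8 and 21. A further 3 each were highest in clusters 5 and 15, 2 were in cluster 13, and 9 other clusters had 1 each. Of the 1199 other called features, 10.8% were highest in cluster 2, 8.26% in cluster 23, 9.17% in cluster 8 and 1.00% in cluster 21. Cluster 18 had 0 of the 42 members and 9.67% of the other features.

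Cluster 21, with 23 cells in library 1 and 54 in library 2, was the highest cluster of DN21711_c0_g1, DN23512_c0_g2, DN23448_c0_g1, DN18899_c0_g2 and DN26730_c0_g4. DN21711_c0_g1 stood at 6137 CPM there in library 1 and at 3360 CPM in library 2, against 142 and 76.9 CPM in all other cells and 551 and 300.4 CPM in empty droplets. The folds over other cells were 43.1 and 43.7. The empty droplets thus lay above the other cells and below cluster 21. DN23448_c0_g1 stood at 2762 and 5135 CPM in cluster 21, which was 12.7-fold and 27.0-fold over other cells, and DN23512_c0_g2 was 18.4-fold and 76.7-fold higher. These 2 levels rested on 18 and 34 UMIs in library 1. In library 2 the 10 cells with the most held 30.9% and 43.8% of the cell UMIs of these 2 members. DN18899_c0_g2 and DN26730_c0_g4 differed less, by 8.3-fold and 5.7-fold and by 9.2-fold and 2.5-fold. In library 1 their levels in cluster 21 rested on 2 and 5 UMIs, so that cluster's place as their highest there is uncertain.

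Further members stood high in clusters 15, 5 and 8. In cluster 15, DN28354_c0_g3 was 53.8-fold higher than in other cells in library 1 and 42.2-fold in library 2, DN22738_c0_g4 was 41.6-fold and 63.3-fold higher, and DN28397_c0_g1 4.1-fold and 8.4-fold. In cluster 5, DN30349_c0_g4 stood at 5408 and 2364 CPM, DN29658_c1_g3 at 2670 and 2085 CPM, and DN20354_c0_g1 at 719 and 818 CPM. In cluster 8, DN20224_c0_g2 stood at 6963 and 3659 CPM against 264 and 284 CPM in other cells, and DN11068_c0_g1 at 2158 and 568 CPM. DN24351_c1_g2, DN23196_c1_g5 and DN20404_c0_g2 were also highest in cluster 8. The first of these was 34.2-fold and 10.8-fold higher there, the second 6.7-fold and 4.0-fold, and the third 3.6-fold and 2.6-fold.

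The folds of the 8 members highest in cluster 2 ran from 3.85 to 9.91 in library 1 and from 5.83 to 12.9 in library 2. Those of the 7 members highest in cluster 23 ran from 2.36 to 6.25 and from 4.79 to 11.9. In library 1 cluster 23 held 33 cells, and the levels of these members there rested on 4 to 19 UMIs each. The 4 UMIs were those of DN24938_c0_g6, detected in 3.03% of these cells. The place of cluster 23 as the highest in library 1 is thus uncertain for the members with few UMIs. In cluster 2, which held 228 and 625 cells, DN20822_c0_g1 stood at 3252 and 536 CPM, 3.8-fold and 6.7-fold over other cells, and DN25043_c3_g3 at 152 and 128 CPM, 4.4-fold and 5.8-fold. The first-ranked member, DN21575_c0_g1, was highest in cluster 1, at 420.4 and 512 CPM, which was 3.0-fold and 5.4-fold over other cells (adjusted p = 7.97e-22, edgeR). In library 2 that level rested on few cells: it was detected in 7.53% of the 93 cells of cluster 1 and in 7.75% of other cells, at median totals of 1298 and 1525 UMIs. Thinned to 268 UMIs per barcode the shares were 4.19% and 1.69%, and 5.66% in empty droplets. The 10 cells with the most held 54.6% of its cell UMIs in library 2. In library 1 its level in empty droplets, 578 CPM, was above that of its highest cluster. It was the only one of the 42 members for which this held.

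Other leading members were called with different highest clusters in the libraries. DN30760_c2_g2, DN21135_c1_g2, DN25449_c0_g2 and DN26169_c0_g2 were called with adjusted p-values of 5.41e-10, 1.59e-24, 8.61e-13 and 2.38e-09 in edgeR. DN20997_c0_g1 was highest in cluster 8 of library 1 at 5477 CPM and in cluster 16 of library 2 at 3714 CPM, but cluster 8 was also high in library 2, at 2807 CPM against a median of 264 CPM. Its level in cluster 16 of library 1 was 731 CPM. DN27730_c0_g4, called with an adjusted p of 7.76e-07 in edgeR, was highest in cluster 5 of library 1 at 1711 CPM and in cluster 1 of library 2 at 628 CPM.

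For 22 of the 96 members no difference among clusters was called. The 5 with the largest p were DN28497_c0_g2, DN26041_c0_g2, DN32509_c2_g1, DN29789_c0_g2 and DN20455_c1_g2, with adjusted p-values of 0.978, 0.952, 0.951, 0.896 and 0.762 in edgeR. DN28497_c0_g2 had medians over clusters of 113 CPM in library 1 and 45.3 CPM in library 2, and its highest clusters, at 265 and 87.4 CPM, rested on 8 and 7 UMIs. The abundant member DN31317_c0_g4 was not called either (adjusted p = 0.102, edgeR), at medians over clusters of 688 and 507 CPM. It was called with DESeq2 (adjusted p = 0.0117), with the highest doublet scores kept (adjusted p = 0.0408, edgeR) and with clusters of 10 or more cells (adjusted p = 0.0163, edgeR). In simulated counts with the same design 44% of features raised 4-fold in cluster 9 were recovered and 85% of those raised 8-fold. Smaller differences may thus have been missed. Cluster 9 held 227 cells in library 1 and 81 in library 2, and raised levels in smaller clusters were not simulated. The simulated libraries shared 1 profile, and all features had 1 dispersion. The raised features covered a wide range of counts, and those failing the low-count filter counted as not recovered. In the simulation 3888 features passed that filter, against 5581 in the data. Recovery at the levels of the uncalled members was not tested.

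The summed member share also varied among clusters. Its median over the 24 clusters was 2.30% in library 1 (1.45 to 3.96%) and 1.15% in library 2 (0.662 to 3.17%). Among these 24, cluster 21 had the highest share in both, 3.96% (exact interval 3.50 to 4.46%) and 3.17% (3.08 to 3.26%), and cluster 18 the lowest, 1.45% (1.35 to 1.56%) and 0.662% (0.631 to 0.694%). In library 2 cluster 21 was the one of the 24 above the share of the empty droplets, and in library 1 their number was 0. Among the clusters left out for too few cells of a library, cluster 28 had 5.77% in library 1 (18 cells, 5.35 to 6.21%) and 1.82% in library 2 (22 cells, 1.71 to 1.93%). Cluster 33 had 3.05% in library 1 (20 cells, 2.61 to 3.54%) and 3.89% in library 2 (2 cells, 3.19 to 4.68%). These intervals cover counting error alone. Over all cells the variance of the summed member UMIs was 4.87 times the binomial one in library 1 and 36.1 times in library 2. The intervals are therefore likely too narrow. In library 2, DN23512_c0_g2 gave 33.9% of the member UMIs of cluster 21, DN23448_c0_g1 16.2%, DN19349_c0_g1 12.8% and DN21711_c0_g1 10.6%. Without cluster 21, 76 of 94 members were called among the others, and 3015 of 5322 features (56.7%). Spearman's coefficient of the share between the libraries over the 24 clusters was 0.662, and with the median UMIs per cell of a cluster it was -0.294 in library 1 and 0.0887 in library 2. Free RNA also enters droplets with cells, and its part in the level of a member in any cluster was not tested.

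**Figure D5:**
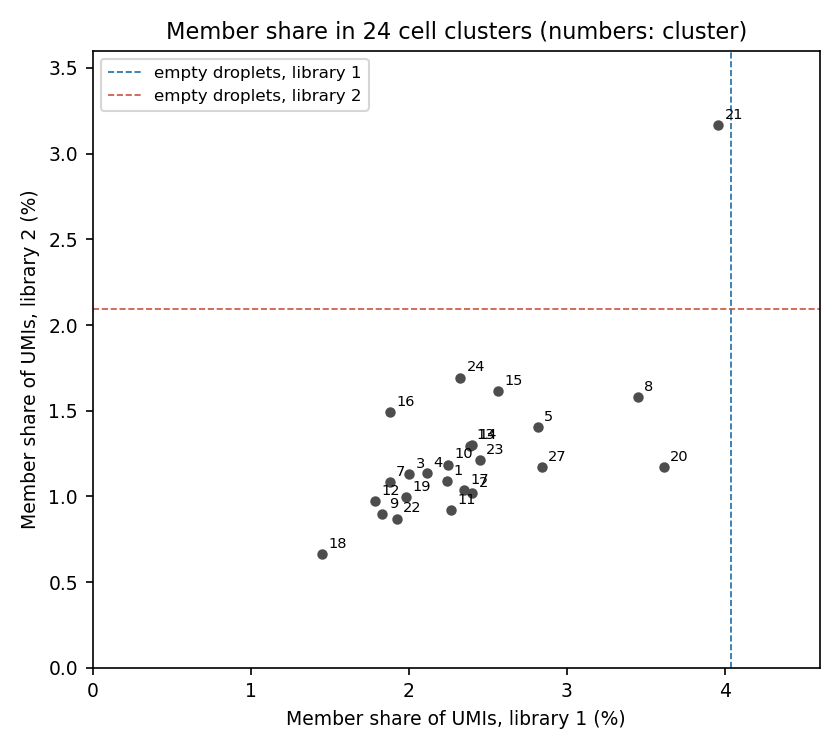
Share of UMIs taken by the 100 members in each of the 24 cell clusters, one numbered point per cluster, with library 1 on the horizontal axis (%), library 2 on the vertical axis (%) and dashed lines at the shares of the empty droplets (4.04% in library 1, 2.09% in library 2). Of these clusters, 21 has the highest share in both libraries, 3.96% and 3.17%, and 18 the lowest.

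The members did not come from shared pieces of the assembly. Trinity groups related sequences into components, and 0 components held more than 1 member. There were 41 members alone in their component, against 33.9% of eligible features. A further 32 members had 48 eligible mates in their component, and 18 of those mates had both ratios above 1. The median lower ratio of the mates was 0.927, close to the 0.888 of all eligible features. The feature just outside the boundary, DN27507_c1_g3, was a mate of the member DN27507_c1_g1, so the count of 0 depended on the place of the boundary. Reads of near-identical mates may have been split between them in the authors' counting, so values of members with mates are uncertain in that respect.

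The opposite end of the ranking gives the range of the ratio. The 100 eligible features with the lowest higher ratio had medians of 0.235 in library 1 and 0.153 in library 2. Their median fold, below the empty range over between, was 0.453 and 0.339, farther from 1 than the 1.12 and 1.38 of the members.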

How the data were processed

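The deposited matrix was an aggregate of both libraries and held UMI counts per feature and barcode. It was made with Cell Ranger 3.0.2 according to the header, and the submitters' processing notes name the same. Whether the aggregation changed the depth of a library was not tested. Aligner settings and the reference are not given in the sources used here. All barcodes of the kit lists were included, and a barcode's suffix gave its library, by run number. Columns of other samples numbered 0. The order of the feature list was checked against the matrix: neighbouring features of 1 component had a correlation above 0.15 in 4.25% of pairs (others 0.519%), and in 1.37% (others 2.36%) with the list shifted by 1.

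Members, lists and thresholds were chosen with earlier results of these data known. The cell threshold was the 99th percentile among the 3000 largest totals, divided by 10. Scrublet's automatic threshold marked 0.0669% and 0.0305% of cells and so had not worked; the 161 and 86 cells with the highest scores were removed (3.59% and 2.63%). Cells were clustered with scanpy 1.11.5 and Leiden (2000 variable features without members, scaled within library, 30 components, 15 neighbours, resolution 1.0). Counts summed per library and cluster were tested with edgeR 4.0.16 in R 4.3.3 (TMM, low-count filter, library block, Benjamini-Hochberg adjustment over all tested features); DESeq2 1.42.0 was an alternative. Both tests were tested on simulated data: for the barcode bands, 23.9% of features changed 1.5-fold, 68.7% changed 2-fold and 100% changed 4-fold were recovered.

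Named features were the 10 members with the highest lower ratio, the 5 with the highest empty-droplet CPM by the lower of the 2 libraries, 3 on either side of the 100th place, and those with the 5 smallest and 5 largest p among clusters. The 3 members with the largest called change between the barcode bands and members sharing a component were also to be named, and there were none. Other members are examples from their cluster, chosen after their values were seen. Intervals cover counting error only.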

Additional observations from a re-analysis of the deposited data

How the results depend on the processing

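The choice of members depended on the rule: 51 stayed with cells at 500 UMIs, 54 without detection limits, and 31 to 44 with 1 library alone, against 69 to 94 under 6 other settings. The median ratio in library 1 was 1.77 with a 1.5 times higher cell threshold, 1.71 with empty droplets within 10% and 1.81 with TMM factors. In library 2 it was 1.75 with the higher threshold and 2.36 with TMM. TMM divides all ratios by 0.930 in library 1 and by 0.707 in library 2, so it moves every feature alike. The median fold between barcode bands in library 2 was 1.59 with the upper band from 80% of the threshold. Members called higher below numbered 4 with DESeq2's size factors (18 of 11954 features), 1 with the lower band from 1 UMI (15 of 13325) and 6 with the upper band from 80% (44 of 10005). With 1 library left out there is no test, and 73 to 99 members had a higher CPM below. Why these values moved was not tested. No paired analysis was possible because the study has 1 group; the library was the block, and without that replicate block 53 members were called among clusters in place of 74, and 1781 of 5581 features in place of 3067. Without the low-count filter 6203 of 19377 features and 78 members were called. Other settings called 73 to 78 members, and 69 to 74 of the 74 were called in each of them. Without the block DN20822_c0_g1, DN25043_c3_g3 and DN27730_c0_g4 lost their call (adjusted p = 1, 0.0604 and 0.146, edgeR). Depth limits library 1, where a cell held a median of 288 UMIs.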
